A study of Mus musculus with 721 samples.

Results

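The transcripts of 10 amino acid transporter genes were followed through the formation of the mouse endocrine pancreas: Slc38a5, Slc38a1 and Slc38a2, Slc3a2 with its partners Slc7a5, Slc7a8 and Slc7a7, then Slc7a2, Slc1a4 and Slc1a5. They were taken by symbol from a table of 32913 gene entries, in which each of the 10 had a single entry, and they were selected on measured FPKM levels in these same cells, Slc38a5 for how it varied with stage and state. The 721 cells came from embryonic pancreas of the Neurogenin 3-eGFP mouse line at 5 days, E11.5, E12.5, E13.5, E14.5 and E15.5, and were sorted for eGFP before SMART-seq, a whole-transcript method. All groups carry this reporter, which marks cells that make or have recently made Neurog3, the factor that starts endocrine differentiation. The labels used here name no treatment, and no wild-type or eGFP-negative group was analysed. Neither the background strain, the sex nor the number of embryos is named in the labels, so the unit compared is the cell set, the cells of 1 day in 1 sequencing run. With 8 cell sets, the p-values along day and between runs measure the spread between sets, which may be partly technical. Those between states measure how state differences vary from set to set, since set is a term of that fit.

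Amino acid transporters set how fast a cell can build protein and how it senses nutrients. System N and system A carriers of the Slc38 family use the sodium gradient to move glutamine and other small neutral amino acids. The heavy chain encoded by Slc3a2 brings light chains of the Slc7 family to the cell surface, where they exchange large neutral or cationic amino acids. In the adult islet, Slc38a5 is known for its rise in alpha cells when glucagon signalling is blocked and amino acids accumulate, and arginine is a classic stimulus of insulin and glucagon release.

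Levels are in FPKM, fragments scaled to the length of the transcript and to the mapped fragments of the cell. The 658 cells kept had a minimum of 100000 fragments and showed 1500 or more genes with an FPKM of 1 or above. They held 101675 to 1990000 fragments, with a median of 587177. Slc38a5 had a median of 56 FPKM in the 10 kept cells of fewest fragments and 198 FPKM in the 10 cells just under the limit. In each cell a state was read from 4 genes, with Neurog3 and Fev counted as present from 10 FPKM and glucagon (Gcg) and insulin (the higher of Ins1 and Ins2) from 100 FPKM. Fev is a factor of precursors that follow the Neurog3 stage. Cells with a hormone went to a hormone state whatever their Neurog3 or Fev level, and the Neurog3 and Fev states hold no hormone cells. This gave 186 Neurog3-only, 86 Neurog3-and-Fev, 70 Fev-only, 51 glucagon-only, 57 insulin-only and 17 glucagon-and-insulin cells, and 191 cells with none of the 4. Mean Neurog3 was 348 FPKM in glucagon-only and 155 FPKM in insulin-only cells, with a median of 1.29 FPKM in each, so some of these cells still held Neurog3. A mean of a state in a set was used from 5 cells on.

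Several features of the sets run beside the values below. All kept cells of both E13.5 sets and of E14.5 run 2, and 90 of 94 of E14.5 run 1, held Xist at 1 FPKM or more and no Y-linked transcript, while E11.5, E12.5 and E15.5 held Y-linked transcripts in 70 of 73 to 82 of 82 cells, so day and sex cannot be told apart. Transcripts with over 60% GC were lowest in E12.5 run 1 and E13.5 run 1, at -1.42 and -1.03 log2 units relative to transcripts of 40 to 50% GC, and between -0.37 and 0.89 elsewhere. Predicted, small RNA and mitochondrial genes took a median of 44.99 to 50.2% of a cell's FPKM in the run 2 sets. In the run 1 sets they took 20.2 to 26.78%, so levels of other genes are not on a like scale between runs. Of the 45 cells with at least 3 of 9 leukocyte markers at 10 FPKM or more, 43 were at E11.5 and E12.5, and 42 had none of the state genes. The E14.5 sets held 1 pair of cells, 1 from each run and with the same plate index pair, that correlated at 0.852, against 0.720 for the next pair. The E14.5 run 2 cell of this pair entered no state mean, so the state comparisons do not rest on it.

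The sequences behind the main result and behind an isoform choice are given here. Slc38a5 lies on the plus strand at chrX:8271133-8280179 (GRCm38, GENCODE vM21). Its main annotated isoform, of 1868 bases, carried 99.2% of the gene's FPKM, as the authors' isoform estimates assigned it. Its coding sequence starts in its first exon, shown in capitals, and runs on into the next exon (coding parts between chrX:8271483-8271943, introns left out).
Slc38a5 main isoform coding start: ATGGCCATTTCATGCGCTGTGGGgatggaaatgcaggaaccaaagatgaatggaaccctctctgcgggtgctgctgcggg
The 120 bases before the start of this isoform, chrX:8271261-8271380 on the plus strand (RefSeq promoter table, GRCm38.p6), lie in no annotated exon. They hold CANNTG, the E-box core that bHLH factors such as Neurog3 can bind, at 2 places, shown in capitals.
Slc38a5 upstream: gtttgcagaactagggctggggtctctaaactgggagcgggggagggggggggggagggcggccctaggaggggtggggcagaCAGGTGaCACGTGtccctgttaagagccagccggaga
This core is common: 72.3% of the 32851 RefSeq promoter windows of 300 bases hold it on either strand, a palindromic motif. A second motif, TGATGNAA, a core bound by Atf4 with C/EBP factors at amino acid response genes, was searched on both strands and stands in 3.97% of the windows. It was absent from the window of Slc38a5. Of the 10 transporters 6 had RefSeq windows, 10 in all. TGATGNAA stood in that of Slc1a4 and in 2 of the 5 of Slc7a7. Slc38a1, Slc7a2, Slc7a5 and Slc1a5 had no entry. Slc7a2, on the plus strand at chr8:40862396-40922308, has a pair of alternative coding exons, of which some isoforms hold the upstream one (chr8:40908056-40908195) and others the downstream one (chr8:40908398-40908534). Aligned end to end they are identical at 84 of 140 columns (60%), and capitals mark bases that differ or stand against a gap.
Slc7a2 upstream exon: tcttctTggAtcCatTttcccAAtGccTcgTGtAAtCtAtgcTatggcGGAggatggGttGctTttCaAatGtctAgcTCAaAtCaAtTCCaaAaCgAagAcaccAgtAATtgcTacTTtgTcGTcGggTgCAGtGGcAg
Slc7a2 downstream exon: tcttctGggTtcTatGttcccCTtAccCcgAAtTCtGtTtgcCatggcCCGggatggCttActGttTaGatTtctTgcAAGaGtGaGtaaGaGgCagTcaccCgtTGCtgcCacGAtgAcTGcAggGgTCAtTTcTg

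Slc38a5, the system N carrier, was among the most abundant transcripts of these cells. Its mean was 4364 FPKM over all kept cells and its median 817 FPKM, which ranked it in place 5 of 20492 named genes by mean. By state its place moved from 34 in Neurog3-only cells to 5 in Neurog3-and-Fev, 2 in Fev-only, 3 in glucagon-only and 10 in insulin-only cells. For scale, Actb, a cytoskeletal actin, had a mean of 2878 FPKM over the same cells.

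Cells fell into a high and a low range of Slc38a5. A total of 229 cells held 1000 to 10000 FPKM and 87 held 10000 or more. Another 97 held 100 to 1000 FPKM and 64 held 10 to 100, while 132 held 1 to 10 and 49 less than 1. The isoform behind these values changed with the level. The main isoform took 99.4% of the Slc38a5 FPKM in the cells of 10000 or more and 99.2% in those of 1000 to 10000, but 58.9% from 10 to 100 and 13.97% from 1 to 10, where other annotated isoforms took the rest. In those 132 cells the main isoform reached 1 FPKM in 9. At the median depth 10 FPKM of Slc38a5 are about 11 fragments, so the lowest values rest on few fragments. Levels under 10 FPKM were met in cells of other kinds too: the 43 early cells with at least 3 leukocyte markers had a median of 5.18 FPKM, with 27.9% at 10 FPKM or more (exact 95% interval 15.3 to 43.7%, 12 of 43). Neurog3-only cells stood at 64.5% (57.2 to 71.4%, 120 of 186) at a like median depth, 586151 against 589557 fragments. By set the Neurog3-only share ran from 33.3% to 100%. In E15.5 runs 1 and 2 it was 35.7% and 33.3%, with medians of 4.86 and 3.66 FPKM. Those 2 shares lie within the interval of the leukocyte-marked cells, and both medians lie below theirs. At 1 FPKM or more stood 79.1% of those leukocyte-marked cells and 94.1% of Neurog3-only cells, so values from 1 to 10 FPKM were not read as expression.

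By set, the mean over all kept cells was 3918 FPKM in the E11.5 set and 2485 FPKM in the E12.5 set. In the 6 later sets, from E13.5 to E15.5 and run 1 before run 2 of each day, it was 13373, 4752, 4330, 2621, 2538 and 2790 FPKM. E13.5 run 1 was the highest set. The share of cells at 10 FPKM or more was 36.99% at E11.5 (exact 95% interval 25.97 to 49.1%) and 44.4% in the E12.5 set (33.96 to 55.3%). It was 100% (94.7 to 100%) and 97.4% (91.04 to 99.7%) in the E13.5 sets, and between 65.9% and 82.4% in the 4 later ones. The early sets thus joined a few very high cells, up to 67841 FPKM at E11.5, with many low ones. Over all kept cells the slope along day was -0.10 ± 0.22 (SE) log2 units per day and did not pass the test (limma, adjusted p = 0.903). No gene of 16156 passed that test (0%), while 1914 had an unadjusted p under 0.05.

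**Figure D1:**
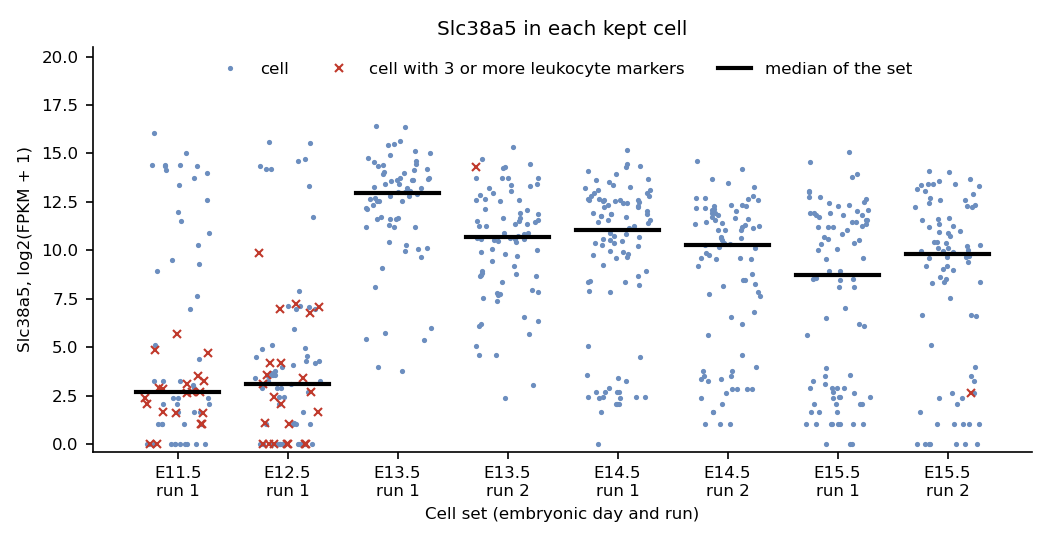
Slc38a5 in each of the 658 kept cells, on the scale log2(FPKM + 1), by cell set; bars are medians, and red crosses are cells with at least 3 leukocyte markers. The medians of E11.5 and E12.5 lie among the low cells and those of the later sets among the high cells, with E13.5 run 1 highest.

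Along the endocrine states, Slc38a5 was higher at each step from Neurog3 to Fev in all 6 sets with the 3 states. Neurog3-only means were 4459 FPKM at E11.5 and 549 FPKM at E12.5, then 5049, 1566, 1109, 644, 334 and 670 FPKM in the later sets in the order just used. Fev-only means in those later sets were 21560, 8329, 6986, 3574, 2281 and 2003 FPKM. Within each of these 6 sets the Fev-only mean was the higher, by 2.99 to 6.81 times. Between sets the states overlapped, since Neurog3-only cells of E13.5 run 1 stood above Fev-only cells of 3 sets. Neurog3-and-Fev means were 14604, 3628, 3817, 2083, 1139 and 1133 FPKM in the same order. They lay between both neighbours in 6 of 6 sets.

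In the fit over all genes, with state and cell set as terms, Slc38a5 was 4.25-fold higher in Fev-only than in Neurog3-only cells, a difference of 2.09 ± 0.49 log2 units (SE, 95% interval 1.09 to 3.08, limma, adjusted p = 0.0132, 6 against 8 set means). It was the only transporter called among the 9 tested, Slc1a4 being under the filter of a mean of 1 FPKM. Of all 16029 genes 3.38% were called here in either direction and 1.37% as higher, 2.01% as lower. Of the 10, this gene had been picked for its level in these cells, so its call is a description and not independent evidence. Over 20 alternatives the difference ran from 1.71 to 4.29 and passed the threshold in 13. The call was lost with lower state thresholds (adjusted p = 0.708), without the set term (0.0902) and in run 1 alone (0.510). Leaving out a cell set gave 1.996 to 2.30, but the adjusted p rose to 0.0519 without E13.5 run 1, 0.0524 without E13.5 run 2, 0.0598 without E14.5 run 2 and 0.0585 without E15.5 run 1. The difference did not vary with run beyond its error (interaction 0.14 ± 1.05, limma, adjusted p = 1; 0.0374% of genes called).

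The first step, Neurog3-and-Fev against Neurog3-only, gave 1.21 ± 0.49 log2 units (limma, adjusted p = 0.400), where 0.306% of genes were called. It was higher in 6 of 6 sets, by 1.69 to 3.44 times. The adjusted p was 0.00212 with at least 10 cells per mean and 0.00555 with the cells of none of the states left out, so the call turned on the setting. Across all 20 alternatives the difference was positive, from 0.24 to 2.45.

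In sets with at least 5 cells of each state, hormone-producing cells held the transcript at means near or above those of Fev-only cells. Glucagon-only means were 28700 FPKM at E12.5, 8035 in E13.5 run 2, 7469 and 8927 in the E14.5 sets and 8175 in E15.5 run 2. The 4 later means lay close together, while Fev-only means of the same 4 sets fell from 8329 to 2003 FPKM. Later sets with too few glucagon-only cells for this gave 43542 FPKM in E13.5 run 1 (4 cells) and 7454 FPKM in E15.5 run 1 (3 cells). In E13.5 run 2 the glucagon-only median was 2448 FPKM, below the Fev-only median of 5243 FPKM. Each of the 51 glucagon-only cells was at 10 FPKM or more (exact 95% interval 93.02 to 100%). Against Fev-only cells the difference was 1.47 ± 0.55 log2 units (limma, adjusted p = 0.225), with the glucagon-only mean higher in 3 of 4 sets, and 0.643% of genes called. Within those 4 sets the ratio ran from 0.96 to 4.08. E12.5 run 1 held no Fev-only mean and enters the fit beside its Neurog3-only mean and its mean of cells with none of the state genes (298 FPKM). Leaving out each set in turn gave 0.90 to 1.87 (limma, adjusted p from 0.15 to 0.499). Insulin-only means were 3902 FPKM in E14.5 run 2 and 3931 and 2703 in the E15.5 sets. They were 1.09 to 1.72 times the Fev-only means of those sets, a difference of 0.29 ± 0.64 log2 units in the fit (95% interval -1.02 to 1.61, limma, adjusted p = 0.987, 0.468% of genes called). Later sets with too few insulin-only cells went the other way. They gave 4426 FPKM in E13.5 run 1 and 2795 FPKM in E14.5 run 1 (4 cells each). The Fev-only means there were 21560 and 6986 FPKM.
Glucagon-only against insulin-only cells gave 1.18 ± 0.68 log2 units (95% interval -0.21 to 2.57, limma, adjusted p = 0.716, 0.206% of genes called), with the glucagon-only mean 2.29 and 3.02 times higher in the 2 sets that held both. Cells with both hormones, too few per set for a mean, had a median of 10598 FPKM over 17 cells. In order of the mean over sets on the log2 scale, Slc38a5 stood at 10.17 ± 1.42 (SD, 8 sets) in Neurog3-only, 11.48 ± 1.38 (6 sets) in Neurog3-and-Fev, 11.76 ± 0.31 (3 sets) in insulin-only, 12.35 ± 1.30 (6 sets) in Fev-only and 13.35 ± 0.82 (5 sets) in glucagon-only cells. The insulin-only values come only from 3 late sets, within which they stood above Fev-only. The neighbours in this order that were tested did not differ past the threshold, and Neurog3-and-Fev against insulin-only was not tested.

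**Figure D2:**
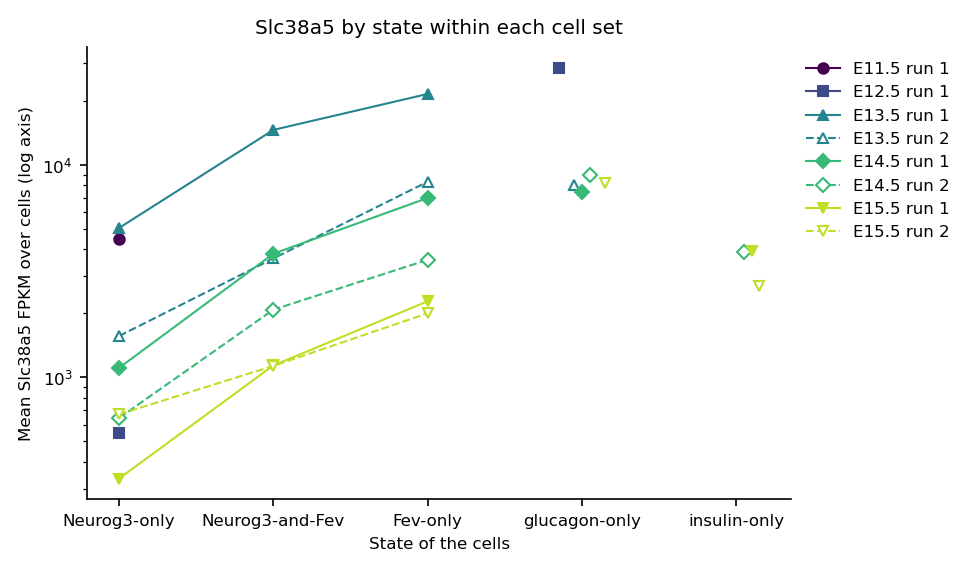
Mean Slc38a5 FPKM (log axis) of the cells of each state, 1 symbol per cell set with at least 5 such cells; lines join the first 3 states within a set, and filled symbols are run 1. The 6 joined sets climb from Neurog3-only to Fev-only, and 4 of 5 glucagon-only means lie between 7469 and 8927 FPKM.

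Within the Neurog3-only state, the slope of Slc38a5 along day was -0.64 ± 0.29 log2 units per day (95% interval -1.29 to 0.01, limma, adjusted p = 0.793), and no gene of 15048 was called (0%), with 924 at an unadjusted p under 0.05. From E13.5 on and without hormones, cells of the highest Neurog3 level had the lowest Slc38a5 level. Median Slc38a5 was 48.9 FPKM in the 110 cells with Neurog3 at 1000 FPKM or more, 823 in the 103 cells from 100 to 1000 and 1945 in the 42 cells from 10 to 100. It was 4191 FPKM in the 53 cells with Neurog3 from 1 to 10 and 3750 in the 75 cells below 1. Cells pool several sets here, so these medians are given without a test.

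The 5 genes whose pattern over 28 state and set means was most like Slc38a5, of 6186 compared, were Gpr119, Cd81, Ttr, P4ha1 and Mgst3. Gpr119, a receptor for lipid amides, led with Pearson's r of 0.901, and its means ran from 0 to 162 FPKM. Cd81, a tetraspanin of the cell surface, followed with 0.833. Ttr, the thyroid hormone carrier transthyretin, had 0.787, P4ha1, a prolyl hydroxylase of collagen, 0.786, and Mgst3, a glutathione transferase of membranes, 0.780. Across the 658 cells, with set means removed, the r of these genes with Slc38a5 was lower, from 0.266 for P4ha1 to 0.451 for Ttr. The means share libraries and depth. Of the other transporters, Slc7a2 was the most like (r = 0.535) and Slc38a1 the least (r = -0.385).

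Slc38a1 and Slc38a2 encode system A carriers, of which Slc38a2 is a classic gene of amino acid starvation. Both were far below Slc38a5, with means of 13.1 and 15.996 FPKM over all kept cells and 34.7% and 35.1% of cells at 10 FPKM or more. Slc38a1 was even over the first 2 states, with set means of 9.46 to 19.996 FPKM in Neurog3-only and 14.48 to 23.3 FPKM in Neurog3-and-Fev cells. In glucagon-only cells it was 22.9 FPKM in E13.5 run 2 and 0.40, 1.39, 0 and 0.14 FPKM in E12.5 run 1, E14.5 run 1, E14.5 run 2 and E15.5 run 2. The 4 low glucagon-only means lay under the lowest mean of every other state shown, 2.43 FPKM in Fev-only cells. Against Fev-only cells the difference was -1.82 ± 0.56 log2 units (limma, adjusted p = 0.125). Leaving out each set in turn gave -2.67 (adjusted p = 0.0149, without E13.5 run 2) to -1.59 (adjusted p = 0.380, without E14.5 run 2), with 1 of 8 past the threshold. Against insulin-only cells it was -2.22 ± 0.69 (limma, adjusted p = 0.286), and from -2.88 (adjusted p = 0.0323, without E13.5 run 2) to -1.72 (adjusted p = 0.846, without E14.5 run 2), again with 1 of 8 past the threshold.

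Slc38a2 had set means of 33.5 FPKM at E11.5 and 22.5 FPKM at E12.5, then 20.9, 17.4, 10.7, 7.47, 9.68 and 9.58 FPKM in the later sets. The 4 sets of E14.5 and E15.5 lay below the 4 earlier ones. The slope was -0.43 ± 0.12 log2 units per day over all kept cells (limma, adjusted p = 0.279) and -0.41 ± 0.18 within Neurog3-only cells (adjusted p = 0.793). At E11.5 its share at 10 FPKM or more was 55% in leukocyte-marked cells, 73.1% in cells with at least 3 of 8 acinar or tip markers and 57.1% in cells with neither these nor endothelial markers. So marked and unmarked cells both held it at that day.

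**Figure D3:**
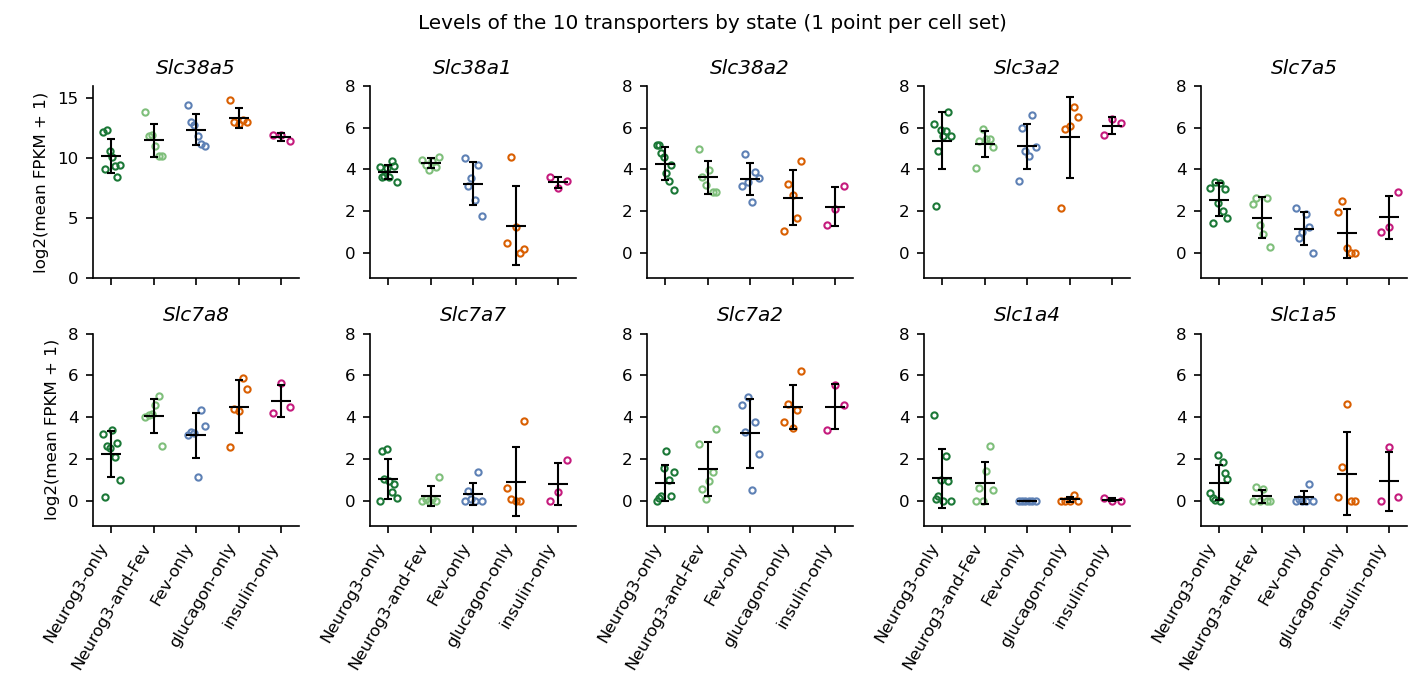
Levels of the 10 transporters, log2(mean FPKM + 1), in 5 states; circles are cell sets and bars the mean ± SD over sets, and the axis of Slc38a5 runs higher than that of the others. Slc38a5 climbs over the first 3 states, its insulin-only mean (11.76) lies below its Fev-only (12.35) and glucagon-only (13.35) means, Slc38a1 has 4 low glucagon-only sets, and Slc1a4 and Slc1a5 lie near 0 in most sets.

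Slc3a2, the heavy chain, was the most abundant of the other transporters, with a mean of 49.1 FPKM and 58.7% of cells at 10 FPKM or more. Its means over all kept cells were 76.02 FPKM in the E11.5 set and 12.54 FPKM in the E12.5 set, then 23.7, 52.5, 42.6, 46.7, 81.3 and 58.7 FPKM in the later sets. The lowest 2 were E12.5 run 1 and E13.5 run 1, which are also the sets lowest in GC-rich transcripts. The Slc3a2 transcript holds 53.4% GC, and the part of GC in its level was not tested. Between states its differences stayed under 1 log2 unit, from -0.54 ± 0.39 in Fev-only against Neurog3-only to 0.93 ± 0.44 in glucagon-only against Fev-only cells (limma, adjusted p = 0.570 and 0.376). The authors' isoform estimates gave the first of the main pair of Slc3a2 isoforms 69.6% of the FPKM of both in Neurog3-only, 66.7% in Neurog3-and-Fev, 55.98% in Fev-only, 45.1% in glucagon-only and 60.9% in insulin-only cells, and 85.2% in cells with none of the state genes.

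The light chains were sparser. Slc7a5, the LAT1 chain for leucine and other large neutral amino acids, had a mean of 3.97 FPKM and stood at 10 FPKM or more in 12.9% of cells. Its set means were 1.73 to 9.35 FPKM in Neurog3-only and 0 to 3.39 FPKM in Fev-only cells, and Neurog3-only cells were the higher in 6 of 6 sets. The difference was -1.34 ± 0.60 log2 units (limma, adjusted p = 0.278). From E13.5 on, 24.5% of the cells with Neurog3 at 1000 FPKM or more held Slc7a5 at 10 FPKM or more, against 6.67% of those with Neurog3 below 1 FPKM. The deposited locus of Slc7a5, chr8:119910360-124345722, is far wider than its place in GENCODE vM21, chr8:121881150-121907694, so the Slc7a5 values may hold fragments of other gene models in that span, which was not tested.

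Slc7a8, the LAT2 chain for small and large neutral amino acids, had a mean of 13.8 FPKM with 21.4% of cells at 10 FPKM or more. Neurog3-only means ran from 0.13 to 9.35 FPKM. Neurog3-and-Fev means were 14.97, 16.2, 16.7, 23.1, 30.8 and 5.07 FPKM from E13.5 to E15.5, run 1 before run 2, each above the Neurog3-only mean of its set. Fev-only means were lower than these in 5 of 6 sets, from 1.18 to 19.6 FPKM, and glucagon-only means were higher than Fev-only in 4 of 4 sets. The differences were 1.76 ± 0.57 log2 units for Neurog3-and-Fev against Neurog3-only (limma, adjusted p = 0.224), 1.75 ± 0.65 for glucagon-only against Fev-only (adjusted p = 0.215) and 1.56 ± 0.75 for insulin-only against Fev-only (adjusted p = 0.498). None was called.

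Slc7a7, the y+LAT1 chain that exports cationic amino acids and is known from macrophages, was met mainly in early cells with leukocyte markers. Its means were 15.3 FPKM in the E11.5 set and 15.2 FPKM in the E12.5 set, and 0.23 to 4.18 FPKM in the 6 later sets. Of the 44 cells at 10 FPKM or more, 27 held at least 3 leukocyte markers, 6 acinar or tip markers and 3 endothelial markers. At E11.5, 55% of leukocyte-marked cells (11 of 20) and 0% of the 28 cells with none of these marker lists were at 10 FPKM or more, which allows up to 12.3% (exact 95% bound). At E12.5 these shares were 65.2% (15 of 23) and 0% of 20, which allows up to 16.8%. From E13.5 on, 1.875% of the unmarked cells (9 of 480) were at 10 FPKM or more. All such intervals cover counting error only. Slc7a8 went the same way, with 80% and 52.2% of leukocyte-marked cells at E11.5 and E12.5 against 10.7% and 5% of the unmarked cells, but it was also met in 22.1% of the unmarked cells from E13.5 on. These shares describe marked cells, not replicates, and the sets carry no test of them. Exons of Slc7a7 overlap those of Oxa1l on the other strand, and the libraries do not mark strand.

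**Figure D4:**
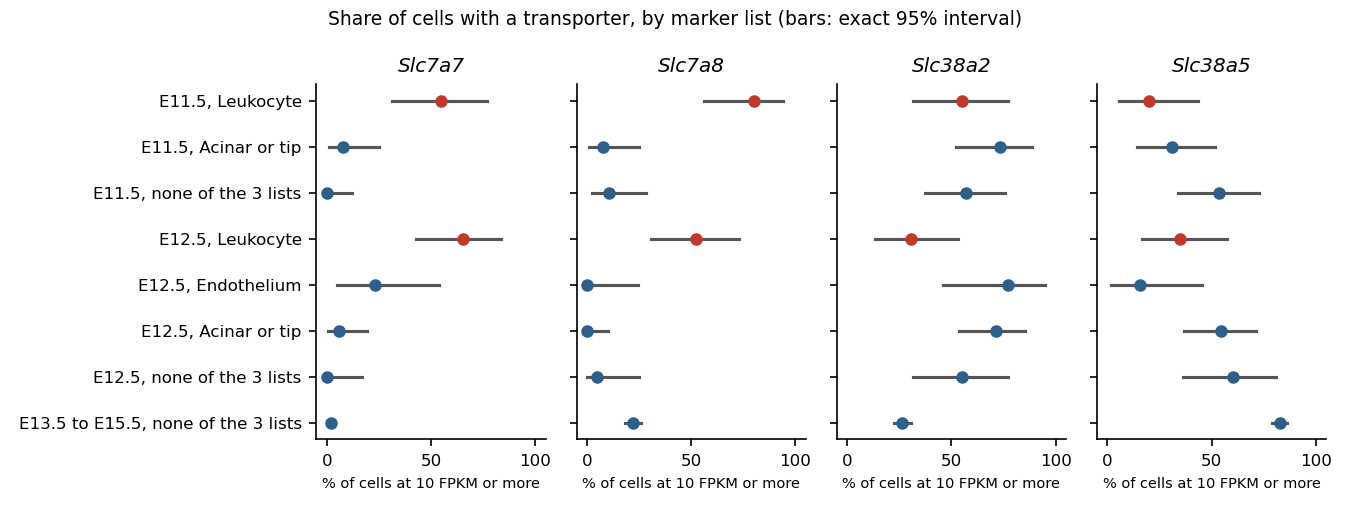
Share of cells at 10 FPKM or more for 4 transporters, by cells with at least 3 markers of a list, in the early sets and from E13.5 on; bars are exact 95% intervals and red points are leukocyte-marked cells. Among early cells the shares of Slc7a7 and Slc7a8 are highest in the leukocyte-marked ones, Slc38a2 is met in all early groups, and the share of Slc38a5 is highest from E13.5 on.

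The heavy and light chains were not tightly bound to each other in single cells. Of the 141 cells with Slc7a8 at 10 FPKM or more, 67.4% (exact 95% interval 58.98 to 75.03%) also held Slc3a2, against 56.3% (51.9 to 60.6%) of the other 517. For Slc7a5 the shares were 61.2% (49.99 to 71.6%) and 58.3% (54.1 to 62.4%), and for Slc7a7 59.1% (43.2 to 73.7%) and 58.6% (54.6 to 62.6%). Cells with a light chain were also sequenced more deeply, with medians of 607084 to 745181 fragments. None of the 3 light chains reached 10 FPKM in 427 cells, and more than 1 did in 36.

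Slc7a2, the CAT2 carrier of arginine, lysine and ornithine, was low in Neurog3-only cells and varied widely between sets in Fev-only and hormone cells. Over all kept cells its mean was 9.39 FPKM with 17.2% of cells at 10 FPKM or more. Neurog3-only means lay between 0 and 4.17 FPKM in 8 sets. Fev-only means were 22.9, 8.66, 30.04, 0.40, 12.8 and 3.71 FPKM from E13.5 to E15.5, run 1 before run 2, above the Neurog3-only mean in 5 of 6 sets. Glucagon-only means ran from 10.1 to 72.2 FPKM (5 sets) and insulin-only means from 9.56 to 46.1 (3 sets), all above each Neurog3-only mean. Fev-only against Neurog3-only gave 2.08 ± 0.62 log2 units (limma, adjusted p = 0.0606), the next after Slc38a5 among the 9. Leaving out each set in turn gave differences of 1.62 to 2.60 with adjusted p from 0.0482 (without E14.5 run 2) to 0.242 (without E13.5 run 1), and 1 of 8 was past the threshold. The step to hormone cells was 1.59 ± 0.71 for glucagon-only and 1.27 ± 0.82 for insulin-only against Fev-only cells (adjusted p = 0.339 and 0.678). Fev-only means of 3 sets, 22.9, 30.04 and 12.8 FPKM, lay above the lowest glucagon-only and insulin-only means. The glucagon-only difference reversed in run 1 alone (-0.48) and with lower state thresholds (-2.05), and the insulin-only one with those thresholds (-2.83). The run difference of the Fev-only step was -2.86 ± 1.11 (adjusted p = 1). At 10 FPKM or more stood 54.9% of glucagon-only, 45.6% of insulin-only and 2.69% of Neurog3-only cells.

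Both alternative exons of Slc7a2 printed above were in use. Isoforms with the upstream exon took 63.9% of the Slc7a2 FPKM in Neurog3-only, 47.2% in Neurog3-and-Fev, 47.5% in Fev-only, 52.3% in glucagon-only and 63.6% in insulin-only cells. The first 2 shares rest on little signal, with 5 of 186 and 5 of 86 cells at 10 FPKM or more. Upstream and downstream means were 0.93 and 0.53 FPKM in the first and 1.32 and 1.48 FPKM in the second. No order along the states is read from these shares. Single cells leaned to either side: of the 113 cells at 10 FPKM or more, 39 had over 90% of it in the upstream exon, 24 over 90% in the downstream exon and 50 lay between. These shares are estimates by the authors' isoform model from few fragments per cell, so they are given with no test. Exons of Slc7a2 overlap those of Gm26584 on the other strand.

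Slc1a4 and Slc1a5 encode ASCT1 and ASCT2, exchangers for serine, alanine, cysteine and, for ASCT2, glutamine. Both were met in few cells. Slc1a4 had a mean of 0.78 FPKM with 12 of 658 cells at 10 FPKM or more. Its Neurog3-only mean was 15.98 FPKM at E11.5, where 2 of 7 cells reached 10 FPKM, and 0 to 3.44 FPKM in the other 7 sets, and all 6 Fev-only means were listed at 0. Slc1a5 had a mean of 1.93 FPKM with 19 of 658 cells at 10 FPKM or more, and its highest set mean was 23.8 FPKM, in the 6 glucagon-only cells of E14.5 run 1, of which 1 was at 10 FPKM or more and the median was 0, and the other 4 glucagon-only means ran from 0 to 2.08 FPKM. Slc1a5 gave -0.69 ± 0.62 log2 units in Fev-only against Neurog3-only cells (limma, adjusted p = 0.683).

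**Figure D5:**
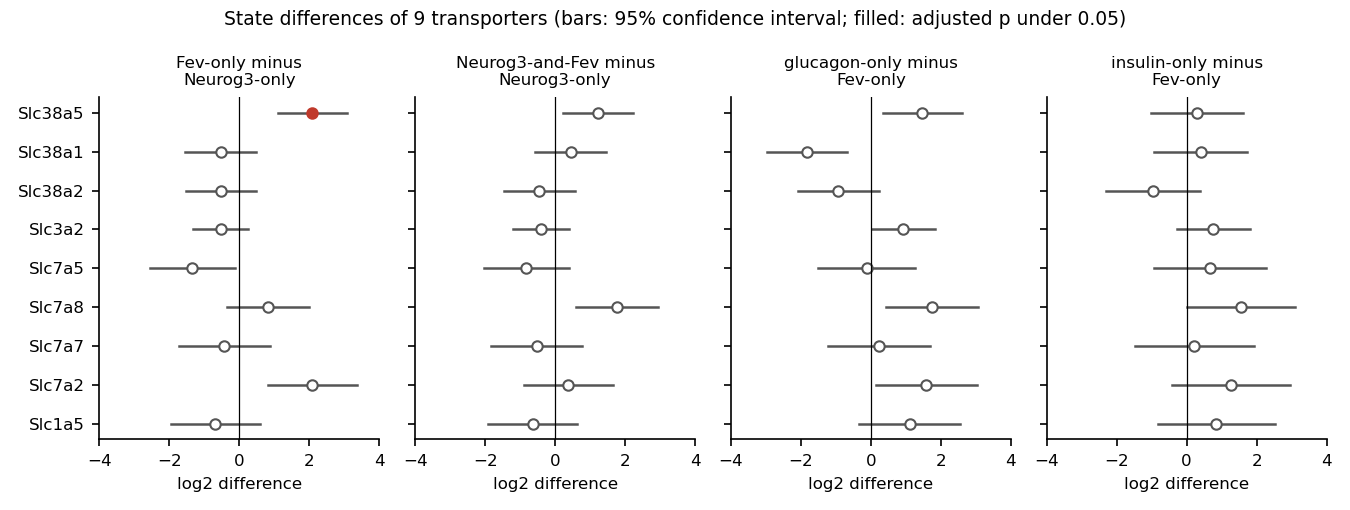
Differences between states in log2(mean FPKM + 1) for the 9 tested transporters, with 95% confidence intervals; filled red points passed an adjusted p of 0.05. The filled point is Slc38a5 in Fev-only against Neurog3-only cells, at 2.09.

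Over the transporters as a group, 1 of 9 tested was called in Fev-only against Neurog3-only cells, where 3.38% of all genes were. In the other 4 state comparisons 0 of 9 were called, where the shares of all genes were 0.306% for Neurog3-and-Fev against Neurog3-only, 0.643% and 0.468% for glucagon-only and insulin-only against Fev-only, and 0.206% for glucagon-only against insulin-only. At shares this low, 0 calls among 9 genes say nothing particular of the transporters. The median difference of the 9 was -0.53 log2 units in Fev-only against Neurog3-only cells, where the median of all genes was -0.10. It was 0.93 in glucagon-only and 0.67 in insulin-only against Fev-only cells, with 0.11 and 0.14 for all genes. Between the runs 0 of 9 were called (0.711% of 15744 genes), with Slc38a5 at -0.69 ± 0.44 log2 units in run 2 against run 1 (limma, adjusted p = 0.491). The larger share of predicted, small RNA and mitochondrial genes in run 2 lies beside this difference, and its part in it was not tested.

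Other genes of amino acid handling were taken from 4 lists, whose counts in Fev-only against Neurog3-only cells stand beside the 3.38% of all genes called there; 1 of 25 and 1 of 33 lie near that share. Of 45 other amino acid transporters 25 were tested and 1 was called in Fev-only against Neurog3-only cells: Slc43a1, the LAT3 carrier of branched-chain amino acids, fell by 2.82 ± 0.66 log2 units (limma, adjusted p = 0.0138), from set means of 12.3 to 52.6 FPKM down to 0 to 8.82 FPKM. These ranges did not overlap, but the share of all genes with such ranges was not computed, so this adds nothing to the call. Of 34 genes of mTORC1 and its amino acid sensors all were tested and 0 called, and those with the largest differences were Sesn2, a leucine sensor (2.204 ± 0.64, adjusted p = 0.0548), and Rragb, a Rag GTPase (1.28 ± 0.60, adjusted p = 0.321). In the list of Atf4 and the amino acid response 1 of 33 tested was called, Asns, the asparagine synthetase, at 1.97 ± 0.36 log2 units (adjusted p = 0.00206). Its means were 7.75 to 31.7 FPKM in Neurog3-only and 48.1 to 110 FPKM in Fev-only cells.

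The fourth list held enzymes of glutamine, glutamate and arginine use. Of 15 tested 2 rose and 1 fell in Fev-only against Neurog3-only cells. Glud1, glutamate dehydrogenase, rose by 2.18 ± 0.35 log2 units (limma, adjusted p = 0.000572), from 9.95 to 39.6 FPKM to 72.7 to 218 FPKM. Glul, glutamine synthetase, rose by 1.35 ± 0.30 (adjusted p = 0.00941), and Got2, the mitochondrial aspartate aminotransferase, fell by 1.01 ± 0.24 (adjusted p = 0.0160). In Neurog3-and-Fev against Neurog3-only cells Asns (1.92 ± 0.36, adjusted p = 0.0114) and Glud1 (1.56 ± 0.35, adjusted p = 0.0453) were already called. In insulin-only against Fev-only cells Pycr1, a proline synthesis enzyme, was called at 3.96 ± 0.88 (adjusted p = 0.0352), the 1 call of the lists there, and glucagon-only cells showed 0 calls of these lists against either Fev-only or insulin-only cells.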

How the data were processed

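Single eGFP-sorted cells were profiled in 96-well plates, and each is 1 deposited sample. The authors aligned reads with TopHat2 2.0.13 to mm10 and made the deposited FPKM values of genes and isoforms with Cufflinks 2.2.0, per the submitters' processing notes; the annotation version is not given in sources used here. FPKM divides by transcript length and by the fragments mapped, so a few very abundant transcripts lower all others. All sample columns were matched to a labelled cell, and 63 of 721 cells were left out by the limits on fragments and genes. No doublet caller was run, since the files hold no counts.

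The mean FPKM of each state in each cell set, of at least 5 cells, was taken as log2(mean + 1) and fitted with limma 3.58.1 (R 4.3.3, with trend) on state and set, for genes with a mean of at least 1 FPKM. There were 35 such means, of which 7 were of cells with none of the state genes, kept as a state of the fit. The p-values were adjusted by Benjamini-Hochberg over all genes tested, with a threshold of 0.05. Differences of low genes are understated on this scale. Shares carry exact Clopper-Pearson 95% intervals over cells, computed with scipy 1.17.1. The fit was checked on simulated data. Genes were named if they were 1 of the 10 transporters, a called or leading gene of a list, or 1 of the 5 most like Slc38a5. The transporters, lists and tests were chosen with earlier results of these data known. Gene places and exons are from GENCODE vM21 and promoter windows from RefSeq.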

Additional observations from a re-analysis of the deposited data

Results flagged for a closer look

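In 49 groups of 4 to 10 set means of the transporters, on the scale log2(mean FPKM + 1), 11 held a set that stood far from the others by Dixon's test, where chance flags about 1 in 20. Slc38a5 was highest over all kept cells in E13.5 run 1 (13.71, next 12.21) and in glucagon-only cells of E12.5 run 1 (14.81, next 13.12). Slc38a1 was highest in glucagon-only cells of E13.5 run 2 (4.58, next 1.26).

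Slc7a7 was highest in E15.5 sets, in Neurog3-and-Fev cells of run 2 (1.15, next 0.095), Fev-only cells of run 1 (1.37, next 0.44) and glucagon-only cells of run 2 (3.83, next 0.62). Each of these means had 1 cell at 10 FPKM or more, of 16, 12 and 11 cells, and a median of 0. Slc7a8 was lowest in Fev-only cells of E14.5 run 2 (1.13, next 3.16). Slc3a2 was lowest in E12.5 run 1, in Neurog3-only (2.23, next 4.87) and in glucagon-only cells (2.14, next 5.94). Slc1a4 was highest in glucagon-only cells of E14.5 run 2 (0.25, all others at 0) and Slc1a5 in Fev-only cells of E15.5 run 1 (0.81, next 0.095).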

How the results depend on the processing

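State differences were recomputed under the alternatives and tallied for Slc38a5 in every state comparison. For Slc38a1, Slc7a2 and Slc7a8 the tally took only comparisons that an alternative called, so it is no rate over all transporters. Of these 240 values 212 kept direction and side of the threshold, 7 lost the call, 14 gained one and 7 reversed. The Slc38a5 difference between Fev-only and Neurog3-only cells was positive in all 20 alternatives (1.71 to 4.29) and past the threshold in 13 (adjusted p 2.47e-06 to 0.708). Besides the sets named above it was lost with lower state thresholds (1 FPKM for Neurog3 and Fev, 10 FPKM for hormones), without the set term and in run 1 alone. Means of log values brought Slc7a2 (1.72) and Slc7a8 (1.62) in glucagon-only and Slc7a2 (1.70) in insulin-only against Fev-only past it, and higher thresholds Slc7a8 (3.36) in insulin-only against Fev-only and Slc38a1 (-2.68) in glucagon-only against Fev-only. Reversals were Slc38a5 in insulin-only against Fev-only (-0.296 with FPKM rescaled without predicted, small RNA and mitochondrial genes, -0.364 with lower thresholds, -0.596 without the set term), Slc7a2 in glucagon-only against Fev-only (-2.047 with lower thresholds, -0.477 in run 1 alone), and, with lower thresholds, Slc7a2 (-2.828) and Slc7a8 (-0.073) in insulin-only against Fev-only. The cause was not tested.

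Counts of called genes moved more. Fev-only against Neurog3-only (541 genes, 1 transporter): 1155 and 2 with 10 cells per mean, 4 and 0 with lower thresholds, 856 and 2 with means of log values, 11 and 0 in run 1 alone, 71 genes in run 2 alone, 909 without the state of none, 2 transporters with rescaled FPKM. Neurog3-and-Fev against Neurog3-only (49 genes, 0 transporters): 204 and 1 with 10 cells, 175 and 1 without none, 102 genes with 300000 fragments, 13 with lower thresholds, 235 with means of logs, 32 without the filter, 30 with a pseudocount of 0.1, 3 in run 1, 21 in run 2, 11 without the set term. Glucagon-only against Fev-only (103, 0): 173 with 10 cells, 35 with 300000 fragments, 292 and 1 with higher thresholds (30 and 1000 FPKM), 6 with lower, 591 and 2 with means of logs, 66 without the filter, 18 in run 1, 3 in run 2, 43 without the set term, 194 without none. Insulin-only against Fev-only (75, 0): 173 and 1 with higher thresholds, 2 with lower, 269 and 1 with means of logs, 34 with the pseudocount, 23 in run 1, 12 in run 2, 37 without the set term. Glucagon-only against insulin-only (33): 15 with 300000 fragments, 75 with higher thresholds, 13 with lower, 104 with means of logs, 52 without the filter, 11 with the pseudocount, 10 in run 2. The day slope gave 1 gene with the pseudocount, and the run comparison (112) gave 283 with means of logs and 57 without the filter. Leaving out 1 set gave, in the same order, 259 to 688 genes and 0 to 1 transporters, 11 to 88 genes, 11 to 250 genes and 0 to 1 transporters, 6 to 99 genes, and 4 to 46 genes and 0 to 1 transporters; the day slope gave 0 to 1 and the run comparison 0 to 112. The state of none and the closest pair were left out by choice after seeing the data. States were compared within cell sets through the set term. For the replicate numbers of the labels, no paired analysis was possible because they name single cells within a set and tie no cell to one of another set.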

Other observations

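Of the 45 other amino acid transporters, 8 had a mean of 10 FPKM or more over all kept cells and 22 a mean under 1 FPKM. Slc38a6, an orphan member of the Slc38 family, had a mean of 294 FPKM and stood at 10 FPKM or more in 100% of the kept cells, leukocyte-marked ones included. This gene was singled out after its values were seen. Whether its exons or its deposited locus overlap other genes was not tested, as this was looked up only for the 10 transporters.

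The 63 cells left out for depth or gene number held Slc38a5 at 10 FPKM or more in 29 cells, with a median of 9.41 FPKM.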
